A study of Mus musculus with 18 samples.

Results

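The interferon-inducible Ifi200 genes of mouse chromosome 1 encode the PYHIN family of proteins, which are named for a pyrin domain and a DNA-binding HIN domain. The genes described are Ifi203, Ifi204, Ifi205, Ifi206, Ifi207, Ifi208, Ifi209, Ifi211, Ifi213 and Mndal. They were chosen by name and not by a cutoff on their values, though with earlier results of these data known. All 10 were found among the 56748 genes of the count table, each in 1 row, and all 10 passed the filter on low counts that left 15450 genes to test. RNA was sequenced from bone marrow-derived macrophages, which were matured from mouse marrow with supernatant of the fibroblast line L929, whose cells secrete M-CSF. There were 6 groups of 3 libraries. TLR4 knockout cells were treated with GM, MDP or water, and so were wild-type cells, all on day 7 of differentiation and for 24 h in serum-free IMDM. The mice are given as C57BL/6J of either genotype, and the labels do not say how the Tlr4 allele was made, nor the age of the mice. GM stands for GlcNAc-MurNAc, the sugar pair that makes up the glycan strands of peptidoglycan. MDP is a muramyl peptide that the labels spell MurNAc-D-Ala-L-Gln, which differs from the spelling of the muramyl dipeptide known to activate NOD2, MurNAc-L-Ala-D-isoGln. The doses of GM and MDP are not stated, so the amounts behind any comparison of one with the other are not known. The labels give the 3 samples of each group as biological replicates and name neither mice nor dishes, so the tests weigh differences against a scatter that may in part be technical.

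PYHIN proteins bind double-stranded DNA through the HIN domain, and several of them lead from foreign or misplaced DNA to the adaptor STING and to type I interferon. Interferon in turn induces most of the family through transcription factors that recognise the interferon-stimulated response element (ISRE), so that the genes are both parts and targets of the response. TLR4, the receptor for bacterial lipopolysaccharide, is known to induce interferon beta in macrophages through the adaptor TRIF. In mouse cells Ifi204 is the best studied counterpart of the human DNA sensor IFI16, Ifi203 has been linked with the helicase DDX41 and STING in the sensing of retroviral DNA, Ifi207 has been linked with STING stability, and Ifi205 has been linked with expression of the inflammasome adaptor ASC. Mndal is named after the human myeloid nuclear differentiation antigen.

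In the count table (GRCm39) the 10 genes span 563 kb of chromosome 1, from 173296051, the first base of Ifi206, to 173859376, the last base of Ifi205. In between lie 3 further family rows (Ifi214, Ifi202b and the pseudogene Ifi203-ps) and 7 other rows, pseudogenes and microRNA loci, and none of those 7 had enough counts to be tested. In order along the chromosome the genes are Ifi206 (173296051 to 173318607, ENSMUSG00000037849), Ifi213 (173393849 to 173426840, ENSMUSG00000073491), Ifi209 (173458483 to 173475494, ENSMUSG00000043263), Ifi208 (173501241 to 173525961, ENSMUSG00000066677), Ifi207 (173550993 to 173569313, ENSMUSG00000073490), Ifi204 (173574859 to 173594509, ENSMUSG00000073489), Mndal (173676692 to 173708447, ENSMUSG00000090272), Ifi211 (173723911 to 173740612, ENSMUSG00000026536), Ifi203 (173747973 to 173770238, ENSMUSG00000039997) and Ifi205 (173839564 to 173859376, ENSMUSG00000054203). Ifi209 and Ifi208 lie on the plus strand and the other 8 on the minus strand.

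Since all 10 genes belong to an interferon-inducible family, their promoters were searched for the ISRE core (GAAA, 2 bases of any kind, GAAA) in RefSeq windows of 300 bases (250 before and 50 after the annotated start, build GRCm38.p6). Windows were matched by symbol for 9 of the 10 genes, all but Ifi204, with Ifi203 and Mndal having 2 each. On either strand the core lay in 9 of the 11 windows and in 8 of the 9 genes, against 3.44% of all 32841 windows of this length. The same 10 letters, GAAATCGAAA, stood in 6 of the 9 genes (Ifi203, Ifi206, Ifi207, Ifi208, Ifi213 and Mndal) and in 16 of the 32841 windows. The STAT site TTCNNNGAA (N being any base) was searched for as well. It lay in 0 of the 11 member windows, against 8.3% of all windows. A match describes the letters only.

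The windows of 30 bases around the core, with the core in capitals, show how alike the sites are. Each runs 5′ to 3′ along the gene's own strand, and for Ifi209 the capitals mark the closest letters.
Ifi206: tgtctctgagGAAATCGAAAgctatgaacc
Ifi208: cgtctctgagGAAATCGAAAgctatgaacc
Ifi213: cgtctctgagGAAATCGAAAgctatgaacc
Ifi203: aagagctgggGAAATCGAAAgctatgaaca
Mndal: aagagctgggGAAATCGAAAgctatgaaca
Ifi207: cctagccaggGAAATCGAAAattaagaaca
Ifi211: caaagccaggGAAATTGAAAgctatgaacg
Ifi205: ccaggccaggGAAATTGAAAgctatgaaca
Ifi209: aatctctgagTAAATCGAAAgagatgcact
The core began 40 bases before the start in Ifi206, 58 in Ifi208, 73 in Ifi213, 35 in Ifi203, 36 in Mndal, 41 in Ifi207 and 37 in Ifi211, and 134 bases before it in Ifi205. Ifi211 and Ifi205 carry C6T relative to the commonest letters, counted from 1 at the first capital, which the core pattern allows. Ifi209 had no match, and the closest 10 letters in its window, 79 bases before the start, carry G1T, which the pattern does not allow. Ifi205 also had a core on the opposite strand 23 bases after the start, and the second Mndal window another one. The first Ifi203 window had none, so the distance for Ifi203 is from the start of its second window.

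The full windows of Ifi206 and Ifi205 are shown because these were the members for which the response to GM differed most clearly between the genotypes, and that of Ifi207 because it had the highest mean level per length and the fold changes nearest 0 against water in wild-type cells. Capitals mark every ISRE core on either strand. The windows are chr1:173491269-173491568 (minus strand), chr1:174031706-174032005 (minus strand) and chr1:173741760-173742059 (minus strand) in GRCm38.p6.
Ifi206: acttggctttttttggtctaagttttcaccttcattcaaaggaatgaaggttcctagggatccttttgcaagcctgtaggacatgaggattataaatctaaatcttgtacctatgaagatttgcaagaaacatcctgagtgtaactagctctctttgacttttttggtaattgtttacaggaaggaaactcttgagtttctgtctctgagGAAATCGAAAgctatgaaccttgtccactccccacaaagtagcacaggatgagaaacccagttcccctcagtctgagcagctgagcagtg
Ifi205: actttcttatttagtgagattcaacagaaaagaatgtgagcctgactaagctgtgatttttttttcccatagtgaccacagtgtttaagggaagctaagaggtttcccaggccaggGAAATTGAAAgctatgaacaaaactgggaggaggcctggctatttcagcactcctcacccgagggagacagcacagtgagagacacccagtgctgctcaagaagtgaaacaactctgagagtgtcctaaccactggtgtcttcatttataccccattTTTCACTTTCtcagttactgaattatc
Ifi207: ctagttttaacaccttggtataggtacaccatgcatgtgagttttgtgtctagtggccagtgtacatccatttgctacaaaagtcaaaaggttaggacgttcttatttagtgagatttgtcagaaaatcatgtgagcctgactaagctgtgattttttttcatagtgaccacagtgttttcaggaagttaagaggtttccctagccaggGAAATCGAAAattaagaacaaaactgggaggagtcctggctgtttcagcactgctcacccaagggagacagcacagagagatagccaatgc

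The libraries held 15532973 to 21128507 counts each, and the 10 genes together took 0.0166% to 0.0946% of them. Levels are given as CPM, counts scaled to the TMM-adjusted size of the library. Tlr4 itself lay at 36.5 to 52.9 CPM in knockout libraries and at 117 to 229.5 CPM in wild-type libraries. Wild-type water replicate 3 stood apart. It was the lowest of its group for 9 of the 10 members, 7 of the 10 lay more than 1 log2 unit below the mean of replicates 1 and 2, as did 15.8% of all tested genes, and Ifi208 and Ifi213 had no count there. The 12 stromal markers summed to 53.1 to 70.6 CPM in knockout GM, 70.4 to 124 CPM in knockout MDP and 48.6 to 71 CPM in knockout water libraries, and to 159 to 194 CPM in wild-type GM, 164 to 186 CPM in wild-type MDP and 129.8 to 510.1 CPM in wild-type water libraries, the lowest wild-type water value being that of replicate 3. The stromal marker Lum was at 0 in the wild-type MDP libraries. The 12 cell cycle genes summed to 783 to 824 CPM in knockout GM, 619.7 to 668 CPM in knockout MDP and 939.8 to 1015 CPM in knockout water, and to 265 to 420.2 CPM in wild-type GM, 593 to 656 CPM in wild-type MDP and 285 to 526 CPM in wild-type water, again lowest for water in replicate 3. The 8 dendritic cell markers summed to 650.4 to 871 CPM in knockout and 1203 to 2016 CPM in wild-type libraries, the 10 neutrophil markers to 119 to 322 CPM in knockout and 21.1 to 90.9 CPM in wild type, the 10 lymphocyte markers to 5.46 to 7.45 CPM in knockout and 4.66 to 7.31 CPM in wild type, and the 12 macrophage markers to 28359 to 33252 CPM in knockout and 24979 to 30960 CPM in wild type. Among defining markers, the neutrophil gene Retnlg was at 0 in all 3 libraries of every group but wild-type MDP, and the dendritic cell gene Siglech in the knockout MDP, wild-type GM and wild-type MDP libraries. The part of any of these in the results on the PYHIN genes was not tested, and in bulk RNA more cells of a type and more RNA per cell cannot be told apart.

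Levels per length were taken from the deposited FPKM. Over all 18 libraries the order was Ifi207, Ifi204, Ifi209, Ifi211, Mndal, Ifi206, Ifi203, Ifi205, Ifi213 and Ifi208, with mean FPKM of 36.6 for Ifi207 and 0.567 for Ifi208. In knockout water libraries Ifi207 lay at 32.1 ± 0.856 FPKM, Ifi204 at 28.8 ± 1.81 and Ifi209 at 20.7 ± 2.89 (SD, n = 3), and these 3 did not overlap. In wild-type water Ifi207 lay at 36.4 ± 6.69, Ifi209 at 21 ± 12.8 and Ifi204 at 16.1 ± 6.58 FPKM, each overlapping its neighbour in the order. The order differed between groups. Ifi206, at 3.22 ± 0.68 FPKM in knockout water and 2.84 ± 1.76 in wild-type water, stood at 24.3 ± 4 FPKM in wild-type GM, where it overlapped Ifi211, and Ifi205 at 8.09 ± 2.59 FPKM in wild-type GM overlapped Ifi203. Ifi205, Ifi208 and Ifi213 were the 3 lowest members in every group, and in wild-type GM the Ifi205 libraries lay above those of both others without overlap.

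**Figure D1:**
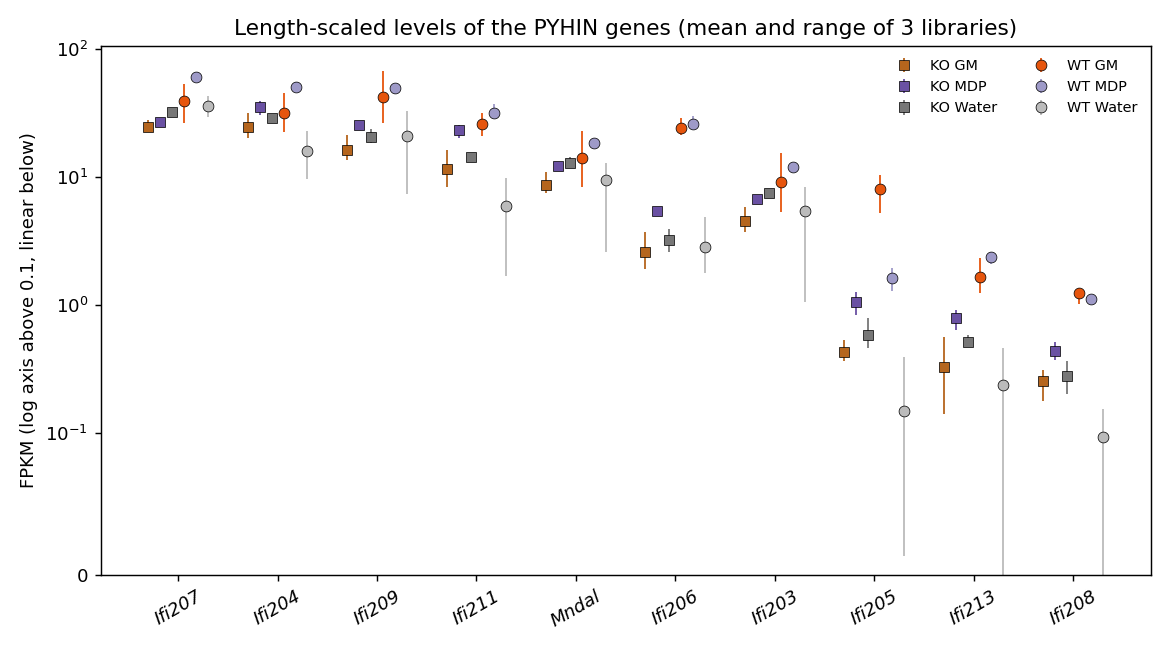
Deposited FPKM (vertical axis, logarithmic above 0.1 and linear below) of the 10 genes, ordered by their mean over the 18 libraries. Squares are knockout and circles wild-type groups, each the mean of 3 libraries with a bar from the lowest to the highest, and Ifi205 stands out with wild-type GM far above its other groups.

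The genes resemble each other in sequence, which bears on how reads are shared out among them. Of the 100-base stretches in the annotated transcripts of Ifi211 (GENCODE M21), 56.9% also occur in transcripts of another gene, 37.2% in Ifi205. For Ifi209 the share was 16.9%, nearly all of it in Ifi214, for Ifi205 15%, for Ifi206 13.1% and for Ifi204 10.7%, whereas it was 3.3% for Ifi213, 2.84% for Ifi203 and 0.79% for Ifi207. Of the 50-base stretches, 72.8% were shared for Ifi211, 33.7% for Ifi209, 25.6% for Ifi206, 20.8% for Ifi208 and 20% for Ifi204. The shares were 19.6% for Mndal, 18.6% for Ifi205, 15.6% for Ifi213, 12.2% for Ifi203 and 7.29% for Ifi207. How the authors' counting treated such reads is not given in the sources used here. Levels of all 10 genes are therefore uncertain to some degree, most of all those of Ifi211 and its differences from Ifi205. The 10 gene spans do not overlap each other, and the pseudogene Gm38050 lies inside Mndal on the same strand.

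GM against water in wild-type cells asks what the disaccharide does to macrophages with intact TLR4, which the series title names as its receptor. Ifi206 rose. It had 66.5, 89.8 and 70.5 CPM in the 3 GM libraries and 5.4, 14.9 and 5.87 CPM in the 3 water libraries, replicates 1 to 3 in order. The lowest GM library lay well above the highest water library, an 8.69-fold difference (log2 3.12, SE 0.43, adjusted p = 0.0396, edgeR quasi-likelihood test of the 6 libraries with Benjamini-Hochberg adjustment over all genes). Among the 10 members 1 rose, against 0.608% of all genes, and the other 9 did not pass, although all 10 fold changes were positive (median log2 1.60, against -0.03 over all tested genes).

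Ifi205, the member linked with ASC, had 36.8, 22.5 and 43.8 CPM with GM and 0.151, 1.64 and 0.0553 CPM in water. This was the largest difference in the family, ranking 11th of 15450 genes by fold change, and it did not pass, with 1 to 27 counts in a water library (log2 5.84, SE 0.93, adjusted p = 0.0702). Leaving out 1 library at a time moved it between log2 5.32 and 8.26. Ifi211, Ifi208 and Ifi213 were separated as well. Ifi211 had 38.6, 58.2 and 46.4 CPM with GM and 11.3, 17.7 and 3.04 CPM in water (log2 2.16, SE 0.57, adjusted p = 0.346). Ifi208 had 5.43, 7.3 and 7.02 CPM with GM and 0.807, 0.731 and 0 in water (log2 3.66, SE 0.87, adjusted p = 0.258). Ifi213 had 8.67, 16.3 and 9.34 CPM with GM and 1.72, 3.17 and 0 in water (log2 2.82, SE 1.04, adjusted p = 0.675). In these 5 genes no GM library overlapped a water library, as in 7.29% of all genes in this direction.

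The other members, Ifi204, Ifi207, Ifi209, Ifi203 and Mndal, overlapped between GM and water in wild-type cells. Ifi204, the counterpart of IFI16, had 97.1, 167 and 81.8 CPM with GM and 56.2, 81.8 and 35.2 CPM in water (log2 1.00, SE 0.38, adjusted p = 0.707), where GM replicate 3 lay just below water replicate 2. Ifi207 had 130.3, 188 and 91.7 CPM with GM and 126, 147 and 102 CPM in water (log2 0.13, SE 0.28, adjusted p = 0.999), with the lowest GM library below all water libraries. Ifi209 had 119.9, 245 and 94.9 CPM with GM and 81.4, 116 and 26.6 CPM in water (log2 1.03, SE 0.58, adjusted p = 0.966). Ifi203 (log2 0.78, SE 0.75, adjusted p = 0.999) and Mndal (log2 0.59, SE 0.65, adjusted p = 0.999) had their lowest value in water replicate 3 and their highest in GM replicate 2. GM replicate 2 was the highest of its group for 9 members and the lowest for Ifi205.

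The number of calls depended on the fit. With all 18 libraries in the fit 5 members rose (Ifi205, Ifi206, Ifi208, Ifi211 and Ifi213, against 3.94% of all genes), without water replicate 3, 4 rose (Ifi205, Ifi206, Ifi208 and Ifi211, against 1.5%), and without water replicate 1, or any 1 of the 3 GM libraries, none passed, Ifi206 included, whose log2 change then ran from 2.86 to 3.20. Without water replicate 2, Ifi205 (log2 8.26, adjusted p = 0.0273) and Ifi206 (log2 3.75, adjusted p = 0.0197) passed, against 0.129% of all genes.

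In the comparison of MDP with water in wild-type cells Ifi204, Ifi206, Ifi207, Ifi208 and Ifi211 rose, 5 of 10 against 4.61% of all genes, and the other 5 had positive fold changes that did not pass. The median of the 10 was log2 2.05, against -0.04 over all tested genes. All 10 members were higher in every MDP library than in any water library, as were 18.8% of all genes.

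Ifi206 had 91.8, 76.8 and 73.5 CPM with MDP and 5.4, 14.9 and 5.87 CPM in water, a 9.29-fold rise (log2 3.22, SE 0.41, adjusted p = 0.00794). Ifi204 had 197, 176 and 175 CPM with MDP and 56.2, 81.8 and 35.2 in water (log2 1.66, SE 0.29, adjusted p = 0.0196). Ifi207, whose product is linked with STING stability, had 215, 203 and 209 CPM with MDP and 126, 147 and 102 in water, the smallest rise of the 5 (log2 0.74, SE 0.14, adjusted p = 0.0281). The MDP libraries of each of these genes lay close together and clear of the water libraries. Ifi211 rose as well, with 67.1, 53.3 and 52.3 CPM against 11.3, 17.7 and 3.04 in water (log2 2.43, SE 0.55, adjusted p = 0.0446). So did Ifi208, with 6.02, 5.99 and 5.56 CPM against 0.807, 0.731 and 0 in water (log2 3.49, SE 0.77, adjusted p = 0.0415).

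Ifi205 and Ifi213 did not pass. Ifi205 had 8.21, 6.77 and 5.37 CPM with MDP and 0.151, 1.64 and 0.0553 in water (log2 3.50, SE 0.91, adjusted p = 0.0666). Ifi213 had 16.7, 18 and 14.4 CPM with MDP and 1.72, 3.17 and 0 in water (log2 3.34, SE 0.90, adjusted p = 0.0723). Ifi209 (log2 1.25, SE 0.47, adjusted p = 0.156), Ifi203 (log2 1.16, SE 0.63, adjusted p = 0.297) and Mndal (log2 0.97, SE 0.53, adjusted p = 0.296) did not pass either. Ifi203, linked with DDX41, had 85.1, 76.5 and 82.3 CPM with MDP and 45.5, 56.7 and 7.19 in water, and Mndal 68.7, 67.6 and 64.2 CPM with MDP and 46.2, 46.7 and 9.41 CPM in water. In this comparison 4.61% of all genes rose and 3.72% fell. Of 11 tested stromal markers 7 fell in it, of 6 dendritic cell markers 2 rose and 1 fell, and of 7 neutrophil markers 1 rose. Their part in it was not tested.

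Without water replicate 3 all 10 rose (against 17.2% of all genes), without water replicate 1 only Ifi206 passed (2.35%), and without any 1 MDP library none did, while the fit of all 18 libraries had 8 higher (11.2%) and limma-voom with a spread for each group 8 (4.27%). Without water replicate 2 Ifi206 was at log2 3.84 (adjusted p = 0.00301) and Ifi205 at log2 5.92 (adjusted p = 0.0103).

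GM and MDP in wild-type cells were set against each other directly, since the comparisons with water share their water libraries. Ifi205 was higher, with 36.8, 22.5 and 43.8 CPM under GM and 8.21, 6.77 and 5.37 CPM under MDP, 5.04-fold higher with GM (log2 2.33, SE 0.27, adjusted p = 0.00504). Thus 1 member was higher, against 5.59% of all genes. Ifi206 (log2 -0.09, SE 0.14, adjusted p = 0.685, 95% interval -0.42 to 0.23) and Ifi208 (log2 0.17, SE 0.19, adjusted p = 0.583, 95% interval -0.27 to 0.60) did not pass. Ifi204 and Ifi207 were lower in every GM library than in any MDP library but did not pass (Ifi204: log2 -0.67, SE 0.25, adjusted p = 0.129. Ifi207: log2 -0.61, SE 0.23, adjusted p = 0.134). The other members did not pass either, at log2 -0.38 for Ifi203 (adjusted p = 0.53), log2 -0.22 for Ifi209 (adjusted p = 0.689), log2 -0.27 for Ifi211 (adjusted p = 0.318), log2 -0.52 for Ifi213 (adjusted p = 0.211) and -0.38 for Mndal (adjusted p = 0.497). Without GM replicate 2, 8 members passed, Ifi205 higher and Ifi203, Ifi204, Ifi207, Ifi209, Ifi211, Ifi213 and Mndal lower with GM (29% of all genes in either direction). DESeq2 and limma-voom called Ifi204 and Ifi207 lower as well as Ifi205 higher. Of all genes 5.59% passed as higher and 4.41% as lower with GM. Of 11 stromal markers 5 were higher and 1 lower, and of 12 cell cycle genes 5 were lower. Of 6 dendritic cell markers 1 was higher and 1 lower, of 12 macrophage markers 1 higher and 1 lower, and of 7 neutrophil markers 1 lower. Their part was not tested.

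**Figure D2:**
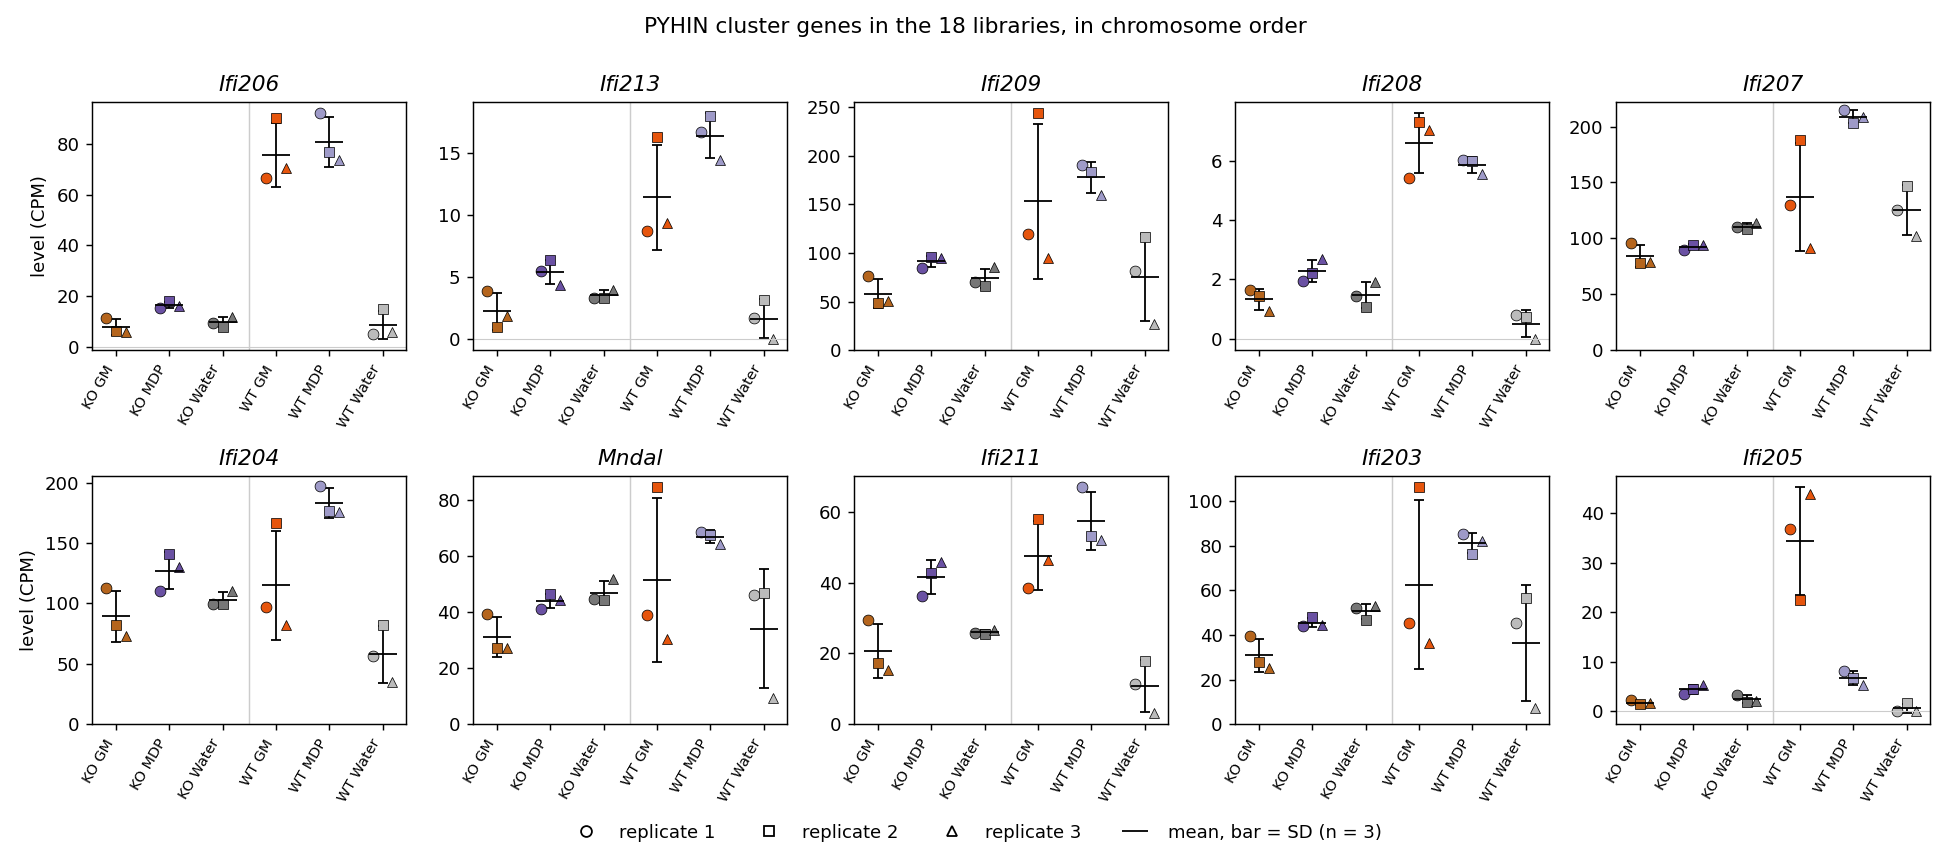
Level in CPM (vertical axis including 0, its range differing by gene) of each member in the 18 libraries, with the mean and SD of each group of 3. The GM and MDP groups of wild-type cells lie above wild-type water for Ifi206, Ifi213, Ifi208, Ifi211 and Ifi205, wild-type water replicate 3 (triangle) is the lowest of its group for 9 of the 10 genes, and in Ifi205 every wild-type GM library exceeds every wild-type MDP library.

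In the comparison of GM with water in TLR4 knockout cells Ifi207 fell, with 95.6, 78.4 and 78.8 CPM in the GM libraries and 110.2, 108 and 114 CPM in the water libraries (log2 -0.39, SE 0.06, adjusted p = 0.000326). That was 1 of 10 against 4.23% of all genes lower. All 10 fold changes were negative, with a median of log2 -0.37 against -0.0034 over all tested genes. Ifi206 had 11.4, 6.62 and 5.87 CPM with GM and 9.73, 7.9 and 12 in water (log2 -0.31, SE 0.29, adjusted p = 0.67, 95% interval -1.005 to 0.39), and Ifi205 2.25, 1.53 and 1.61 CPM with GM and 3.35, 1.93 and 2.05 CPM in water (log2 -0.44, SE 0.28, adjusted p = 0.408, 95% interval -1.004 to 0.12). The groups of both genes overlapped. Ifi203 had 39.4, 27.9 and 25.2 CPM with GM and 52.1, 46.9 and 53.1 in water (log2 -0.72, SE 0.19, adjusted p = 0.13) and Mndal 39.3, 27 and 27.1 CPM with GM and 44.8, 44.4 and 51.6 CPM in water (log2 -0.59, SE 0.18, adjusted p = 0.155), with every GM library below every water library in both. The remaining members did not pass, with values of log2 -0.21 for Ifi204 (adjusted p = 0.676), log2 -0.13 for Ifi208 (adjusted p = 0.899), log2 -0.34 for Ifi209 (adjusted p = 0.552), log2 -0.33 for Ifi211 (adjusted p = 0.653) and -0.65 for Ifi213 (adjusted p = 0.409). GM replicate 1 was the highest of its group for all 10 members. Without it 8 fell, all but Ifi205 and Ifi208 (against 4.6% of all genes), and in the fit of all 18 libraries (0.0194% of all genes) Ifi207 did not pass. Of 12 cell cycle genes 9 fell in this comparison, of 11 stromal markers 2 fell, and their part was not tested.

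MDP in knockout cells raised 6 of the 10 members (Ifi204, Ifi205, Ifi206, Ifi209, Ifi211 and Ifi213), against 9.16% of all genes, and lowered Ifi207, against 10%. The largest by fold change was that of Ifi205, with 3.52, 4.51 and 5.33 CPM under MDP and 3.35, 1.93 and 2.05 CPM in water, 1.82-fold (log2 0.86, SE 0.23, adjusted p = 0.00548). Ifi206 had 15.6, 18.1 and 16.2 CPM with MDP and 9.73, 7.9 and 12 in water (log2 0.76, SE 0.13, adjusted p = 1.11e-05), and Ifi211 36.2, 42.8 and 45.8 CPM with MDP and 25.7, 25.3 and 26.6 CPM in water (log2 0.68, SE 0.08, adjusted p = 1.05e-08). In these 3 genes every MDP library lay above every water library. Ifi213 rose by log2 0.63 (adjusted p = 0.0152), Ifi209 by 0.32 (adjusted p = 0.0157) with 1 MDP library overlapping water, and Ifi204 by 0.31 (adjusted p = 0.00991).

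Ifi207 went the other way, with 89.6, 93.8 and 93.9 CPM under MDP and 110.2, 108 and 114 CPM in water, the groups apart (log2 -0.26, SE 0.05, adjusted p = 0.000169). Ifi203 (log2 -0.15, SE 0.07, adjusted p = 0.12), Mndal (log2 -0.09, SE 0.07, adjusted p = 0.428) and Ifi208 (log2 0.65, SE 0.30, adjusted p = 0.13) did not pass. The fit of all 18 libraries (2.76% of all genes) kept none of the 7 calls, and leaving out 1 library at a time gave 4 to 7 calls. Without water replicate 1, water replicate 2 or MDP replicate 3 there were 4, with Ifi206, Ifi207 and Ifi211 in each. With MDP in knockout cells 9.16% of all genes rose and 10% fell. All 12 cell cycle genes fell there, of 6 dendritic cell markers 3 rose and 1 fell, and their part was not tested.

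GM was also set against MDP in knockout cells. Ifi205 was lower, with 2.25, 1.53 and 1.61 CPM under GM and 3.52, 4.51 and 5.33 under MDP (log2 -1.31, SE 0.24, adjusted p = 4.82e-05), while in wild-type cells it was higher with GM, and this difference between the genotypes was not tested as such. Ifi206 was lower too, with 11.4, 6.62 and 5.87 CPM with GM and 15.6, 18.1 and 16.2 CPM with MDP (log2 -1.07, SE 0.24, adjusted p = 0.0195). These were 2 of 10 against 8.31% of all genes, the other 8 having negative fold changes that did not pass, and every GM library lay below every MDP library in 8 of the 10 (15.3% of all genes). Their values were log2 -0.57 for Ifi203 (adjusted p = 0.125), log2 -0.51 for Ifi204 (adjusted p = 0.224), log2 -0.13 for Ifi207 (adjusted p = 0.154), log2 -0.78 for Ifi208 (adjusted p = 0.0661), log2 -0.65 for Ifi209 (adjusted p = 0.135), log2 -1.02 for Ifi211 (adjusted p = 0.112), log2 -1.28 for Ifi213 (adjusted p = 0.117) and -0.50 for Mndal (adjusted p = 0.112). Without GM replicate 1, 9 members passed as lower (7.97% of all genes), without any 1 MDP library only Ifi205 did, and neither did in the fit of all 18 libraries (1.57% of all genes). Of all genes 8.08% passed as higher and 8.31% as lower with GM. Of 12 cell cycle genes 10 were higher, and of 12 macrophage markers 4 were higher and 2 lower. Of 6 dendritic cell markers 1 was higher and 2 lower, of 7 neutrophil markers 1 higher, and of 11 stromal markers 0 passed. Their part was not tested.

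**Figure D3:**
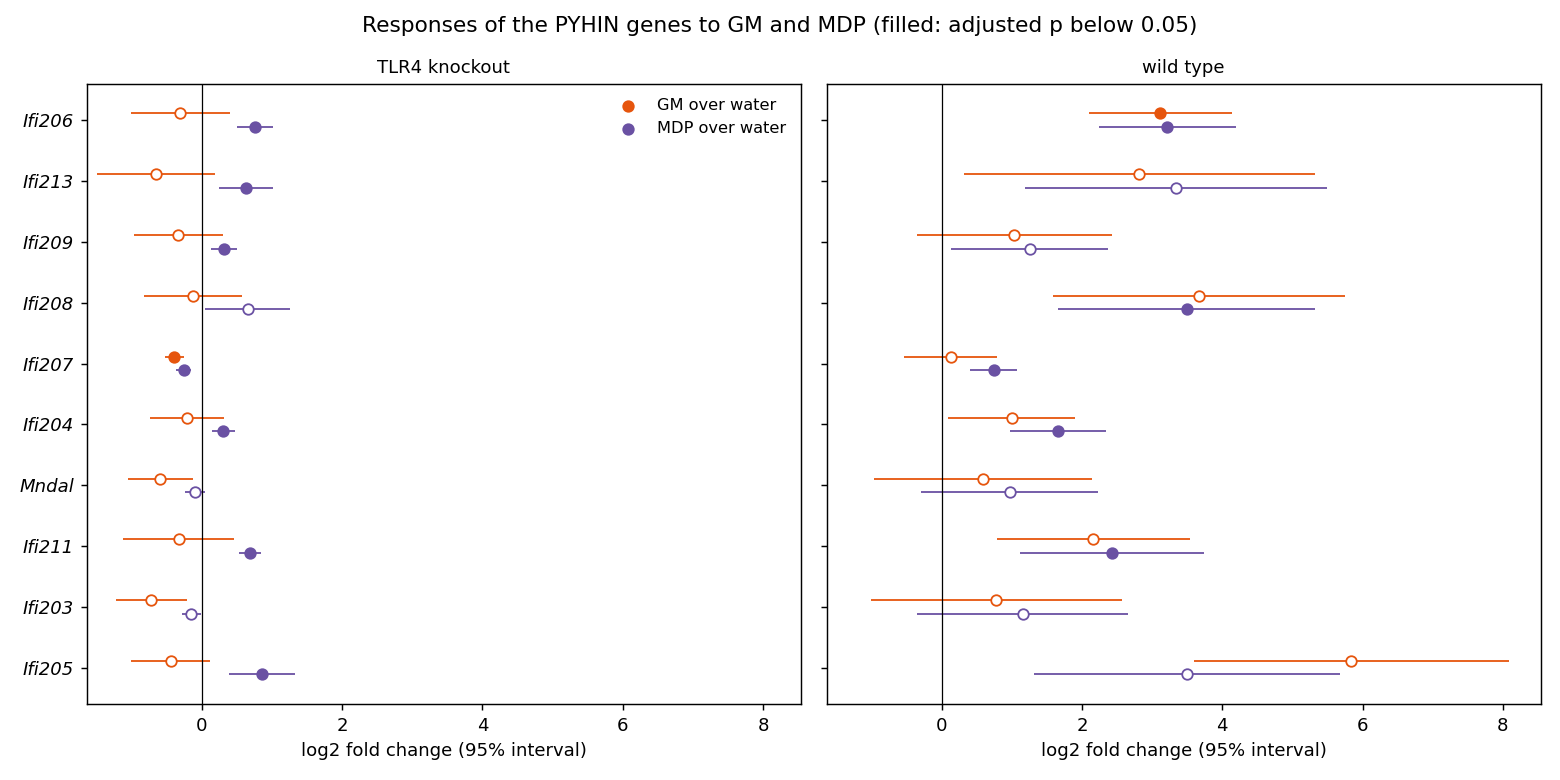
Log2 fold change over water with its 95% interval for each member, in chromosome order, in TLR4 knockout (left) and wild-type cells (right) on 1 scale. Filled points passed an adjusted p of 0.05, and the knockout values lie between -0.72 and 0.86 while the wild-type values reach 5.84 for Ifi205 with GM.

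Along the chromosome large and small fold changes were intermixed. In wild-type cells the genes with the 5 highest fold changes over water, Ifi206, Ifi213, Ifi208, Ifi211 and Ifi205, were interspersed with Ifi209, Ifi207, Ifi204, Mndal and Ifi203, whose fold changes with GM ran from log2 0.13 to 1.03. Next-door genes could differ widely: Ifi207 and Ifi208 were at log2 0.13 and 3.66 with GM, and Ifi203 and Ifi211 at 0.78 and 2.16. All 4 of these genes hold the ISRE core shown above in a promoter window, though 1 of the 2 Ifi203 windows has none. Ifi209, whose window has no match, differed by log2 1.03 with GM and 1.25 with MDP without passing. Whether the core has a part in these sizes was not tested.

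**Figure D4:**
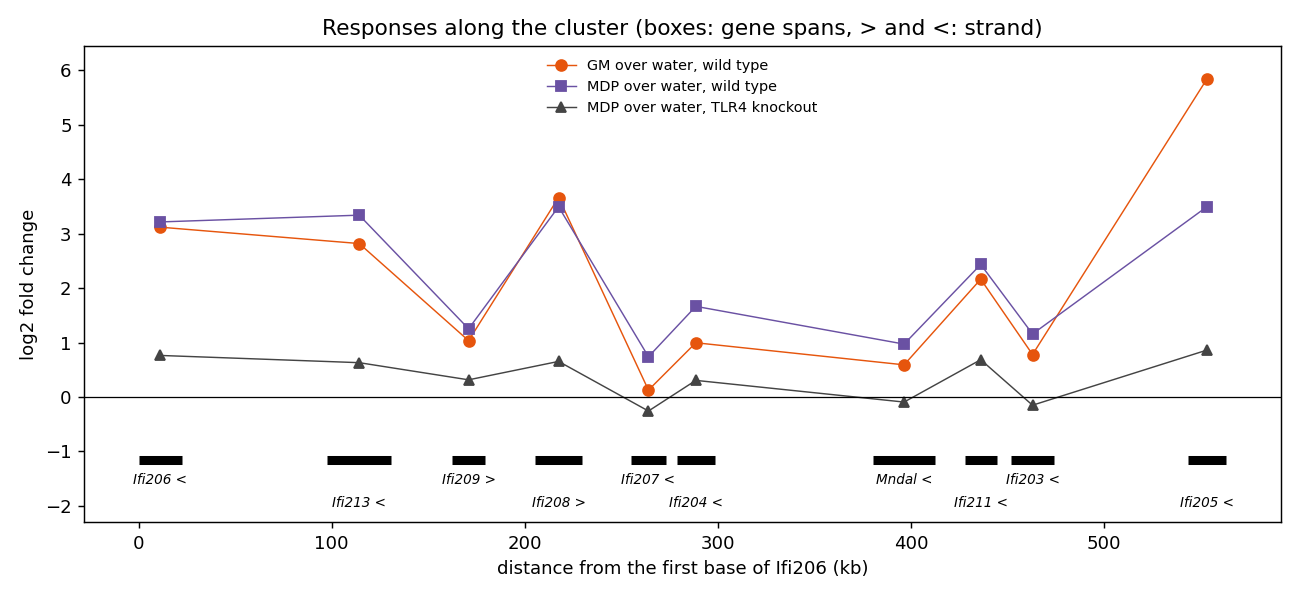
Log2 fold change of each member (vertical axis) against the distance of the gene's middle from the first base of Ifi206 in kb (horizontal axis), for GM and MDP over water in wild-type cells and MDP over water in knockout cells, with the gene spans and strands drawn below to scale. Genes with large and small values stand next to each other, as Ifi208 and Ifi207 do, and the wild-type comparisons share their water libraries.

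Knockout against wild-type cells in water asks whether the genotypes start from the same level. By edgeR none of the 10 members passed (against 14.6% of all genes in either direction), with 1 at an unadjusted p under 0.05, 1 by DESeq2 (23.3% of all genes), 2 by limma-voom with a spread for each group (13.9%) and 4 in the fit of all 18 libraries (33.1%). In 5 members, Ifi204, Ifi205, Ifi208, Ifi211 and Ifi213, every knockout library lay above every wild-type library, as in 22% of all genes. Ifi204 had 99.5, 99.3 and 110.4 CPM in knockout and 56.2, 81.8 and 35.2 in wild-type cells, the groups apart (log2 0.84, SE 0.28, adjusted p = 0.0968). Ifi211 had 25.7, 25.3 and 26.6 CPM in knockout and 11.3, 17.7 and 3.04 in wild-type cells, also apart (log2 1.28, SE 0.54, adjusted p = 0.156). Ifi206 (log2 0.18, SE 0.42, adjusted p = 0.791, 95% interval -0.83 to 1.19) and Ifi209 (log2 -0.02, SE 0.48, adjusted p = 0.982, 95% interval -1.16 to 1.12) overlapped. The others lay at log2 0.48 for Ifi203 (adjusted p = 0.633), log2 2.01 for Ifi205 (adjusted p = 0.203), log2 -0.18 for Ifi207 (adjusted p = 0.414), log2 1.11 for Ifi213 (adjusted p = 0.466) and 0.46 for Mndal (adjusted p = 0.581). Ifi208 was 2.83-fold higher in knockout without passing (adjusted p = 0.282). Without wild-type water replicate 3, Ifi211 passed as higher in knockout and Ifi207 as lower (46.8% of all genes), and without wild-type water replicate 2 Ifi204 and Ifi205 passed as higher (2.84%), with Ifi205 at log2 4.46 (adjusted p = 0.0246). Of all genes 6.32% passed as higher and 8.3% as lower in knockout. In this comparison 9 of 11 stromal and 2 of 6 dendritic cell markers were lower in knockout, 2 of 7 neutrophil markers and 6 of 12 cell cycle genes were higher, and 3 of 12 macrophage markers were higher and 2 lower. Their part was not tested.

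Under GM the knockout cells had less of every member by fold change, and 6 passed as lower (Ifi205, Ifi206, Ifi208, Ifi209, Ifi211 and Ifi213), against 18% of all genes. Ifi205 had 2.25, 1.53 and 1.61 CPM in knockout and 36.8, 22.5 and 43.8 CPM in wild-type GM libraries, 19.1-fold lower in knockout (log2 -4.25, SE 0.30, adjusted p = 0.00032). Ifi206 had 11.4, 6.62 and 5.87 CPM in knockout and 66.5, 89.8 and 70.5 in wild-type libraries, 9.49-fold lower (log2 -3.25, SE 0.27, adjusted p = 0.000505). Ifi213 had 3.88, 0.967 and 1.84 CPM in knockout and 8.67, 16.3 and 9.34 CPM in wild type (log2 -2.36, SE 0.49, adjusted p = 0.0132), and Ifi208 1.64, 1.43 and 0.941 CPM in knockout and 5.43, 7.3 and 7.02 CPM in wild type (log2 -2.304, SE 0.27, adjusted p = 0.00158). The last of those that passed lay at log2 -1.39 for Ifi209 (adjusted p = 0.028) and -1.21 for Ifi211 (adjusted p = 0.0162). All 6 genes that passed were apart between the genotypes (no overlap in this direction in 27.4% of all genes), whereas Ifi204 (log2 -0.37, SE 0.29, adjusted p = 0.351), Ifi207 (log2 -0.70, SE 0.24, adjusted p = 0.068), Ifi203 (log2 -1.02, SE 0.41, adjusted p = 0.0957) and Mndal (log2 -0.72, SE 0.38, adjusted p = 0.185) overlapped. Without knockout GM replicate 3 only Ifi205, Ifi206 and Ifi208 passed (8.77% of all genes), and without knockout GM replicate 1 Ifi213 was at log2 -3.01 (adjusted p = 0.0135). Among all genes 12.7% passed as higher in knockout and 18% as lower. Here 10 of 11 stromal and 5 of 6 dendritic cell markers were lower in knockout, 5 of 7 neutrophil markers and all 12 cell cycle genes were higher, and 2 of 12 macrophage markers were higher and 1 lower. Their part was not tested.

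Under MDP all 10 were lower in knockout than in wild-type cells, against 23.5% of all genes, with no overlap for any of them, as for 27.8% of all genes. Ifi206 differed most, with 15.6, 18.1 and 16.2 CPM in knockout and 91.8, 76.8 and 73.5 CPM in wild-type MDP libraries, 4.85-fold lower (log2 -2.28, SE 0.09, adjusted p = 1.15e-17). Ifi213 was lower by 3.03-fold (log2 -1.60, SE 0.15, adjusted p = 2.77e-10), Ifi208 by 2.57-fold and Ifi207 by 2.26-fold, with 89.6, 93.8 and 93.9 CPM in knockout and 215, 203 and 209 in wild-type libraries. In between came log2 -0.83 for Ifi203 (adjusted p = 1.16e-11), log2 -0.62 for Ifi205 (adjusted p = 0.0105), log2 -0.96 for Ifi209 (adjusted p = 1.68e-12) and -0.61 for Mndal (adjusted p = 1.63e-08). The smallest differences were those of Ifi211 (log2 -0.47, SE 0.11, adjusted p = 0.0024) and Ifi204 (log2 -0.53, SE 0.08, adjusted p = 4.38e-05). Over all genes 20.5% passed as higher in knockout and 23.5% as lower. All 6 tested dendritic cell markers and 7 of 11 stromal markers were lower in knockout (1 stromal marker was higher), as were 8 of 12 macrophage markers (3 were higher), while 6 of 7 neutrophil markers were higher (1 lower) and 6 of 12 cell cycle genes higher (3 lower). Their part was not tested. In the fit of all 18 libraries 3 passed, Ifi206, Ifi207 and Ifi208 (13.6% of all genes).

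**Figure D5:**
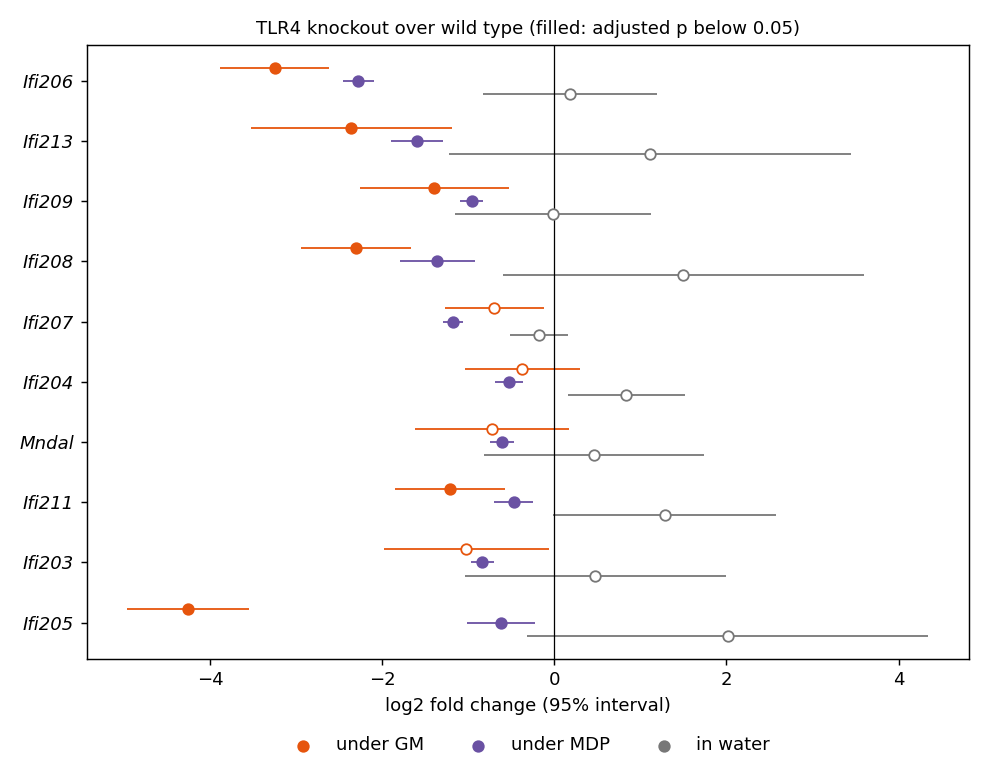
Log2 fold change of TLR4 knockout over wild type with its 95% interval for each member under GM, under MDP and in water. In water the intervals of 9 of the 10 genes cross 0, under GM 6 genes and under MDP all 10 passed an adjusted p of 0.05 (filled) as lower in knockout.

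Whether the responses themselves differed between genotypes was tested as the response in knockout minus that in wild type, over 12 libraries. For GM, Ifi205 (log2 -6.30, SE 0.94, adjusted p = 0.00872) and Ifi206 (log2 -3.43, SE 0.54, adjusted p = 0.0128) differed, 2 of 10 against 0.926% of all genes. Ifi208 (log2 -3.80, SE 0.87, adjusted p = 0.0865), Ifi211 (log2 -2.49, SE 0.65, adjusted p = 0.159) and Ifi213 (log2 -3.48, SE 1.13, adjusted p = 0.346) did not pass, but Ifi208 and Ifi211 did in the fit of all 18 libraries, and all of these 3 did without wild-type water replicate 3. Ifi206 lost its call without knockout GM replicate 2 or replicate 3, and Ifi205 kept it without each library in turn, at log2 -5.77 to -8.71. The value furthest from 0 was that without wild-type water replicate 2, where Ifi206 was at log2 -4.05 (adjusted p = 0.000986). The remaining members did not pass, at log2 -1.50 for Ifi203 (adjusted p = 0.759), log2 -1.21 for Ifi204 (adjusted p = 0.455), log2 -0.52 for Ifi207 (adjusted p = 0.791), log2 -1.38 for Ifi209 (adjusted p = 0.673) and -1.18 for Mndal (adjusted p = 0.802).

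For MDP, Ifi204 (log2 -1.36, SE 0.32, adjusted p = 0.0256), Ifi206 (log2 -2.46, SE 0.45, adjusted p = 0.00794), Ifi207 (log2 -0.997, SE 0.15, adjusted p = 0.00226) and Ifi208 (log2 -2.85, SE 0.77, adjusted p = 0.0437) differed, 4 of 10 against 4.63% of all genes. Ifi207 was higher with MDP in wild-type and lower with MDP in knockout cells, the only member called in both directions. Ifi205 (log2 -2.65, SE 0.91, adjusted p = 0.101), Ifi211 (log2 -1.75, SE 0.56, adjusted p = 0.0858) and Ifi213 (log2 -2.72, SE 0.87, adjusted p = 0.0847) did not pass. Nor did the last 3, at log2 -1.31 for Ifi203 (adjusted p = 0.266), log2 -0.94 for Ifi209 (adjusted p = 0.297) and -1.07 for Mndal (adjusted p = 0.284). Without wild-type water replicate 3 all but Ifi209 passed (14.1% of all genes), and Ifi206 and Ifi207 passed without each library in turn, whereas Ifi204 and Ifi208 lost their calls without any 1 of the wild-type MDP or the knockout water libraries or knockout MDP replicate 1 or 3, and Ifi208 also without knockout MDP replicate 2. Without wild-type water replicate 2 Ifi206 was at log2 -3.09 (adjusted p = 9.23e-05), and without wild-type water replicate 3 Ifi208 was at log2 -2.26 (adjusted p = 0.000108). In this test 1232 of all 15450 genes passed in either direction, with 4.63% of all genes lower in knockout. Of 12 cell cycle genes 5 were lower and of 11 stromal markers 3 were higher in knockout, and their part was not tested.

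The rest of the family was followed for comparison, 3 of 4 listed genes in the table having enough counts to test. Aim2, the DNA sensor that builds an inflammasome, lies beside Ifi206. It had 53.9, 48 and 50.8 CPM in knockout GM, 50.1, 55.4 and 53.2 in knockout MDP and 59, 60.4 and 54.2 in knockout water, and 47.1, 50.4 and 51.4 in wild-type GM, 45, 48 and 47.3 in wild-type MDP and 45.7, 42.4 and 63.9 in wild-type water, with wild-type water replicate 3 its highest library of all. In wild-type cells it did not pass with GM (log2 -0.03, SE 0.17, adjusted p = 0.999) or MDP (log2 -0.11, SE 0.17, adjusted p = 0.702), and in knockout it fell with GM (log2 -0.19, SE 0.06, adjusted p = 0.0469), a call that was lost with DESeq2 and in the fit of all 18 libraries. Under MDP it was higher in knockout than in wild type (log2 0.18, SE 0.07, adjusted p = 0.0403), the opposite direction to the 10 members. There edgeR called all 3 tested genes of this list, against 44% of all genes in either direction. DESeq2 called 2 of them (6187 of all 15450 genes) and the fit of all 18 libraries 1 (4016 genes). Ifi214, near Ifi206, had 2.25, 4.08 and 3.11 CPM in wild-type GM and 0.353, 0.731 and 0 in wild-type water without passing (log2 3.12, SE 0.90, adjusted p = 0.421), and was lower in knockout than in wild type under GM (log2 -2.78, SE 0.64, adjusted p = 0.0176) and under MDP (log2 -2.04, SE 0.34, adjusted p = 1.26e-05). Ifi202b, which encodes a family member without a pyrin domain, had 2 counts in 1 wild-type GM library and no count in the other 17. Ifi203-ps lay at 0.448 to 1.23 CPM in knockout GM, 0.253 to 0.974 in knockout MDP, 0.683 to 1.33 in knockout water, 1.23 to 1.31 in wild-type MDP and 0.0553 to 0.852 in wild-type water, and was highest in a wild-type GM library with 28 counts.

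Of 27 tested genes of DNA sensing outside the family, by edgeR none passed with GM in wild type (4 at an unadjusted p under 0.05, 1 by DESeq2 and 4 in the fit of all 18 libraries), with a median log2 of -0.04, against -0.03 over all genes. With MDP in wild type 2 rose, Zbp1, a sensor of Z-form nucleic acid (log2 2.08, SE 0.25, adjusted p = 0.00709), and the kinase gene Ikbke (log2 1.79, SE 0.31, adjusted p = 0.0192), against 4.61% of all genes. In knockout cells 2 fell with GM, Sting1, the adaptor through which several PYHIN proteins signal (log2 -0.28, SE 0.06, adjusted p = 0.000851), and the endosomal DNA receptor gene Tlr9 (log2 -0.24, SE 0.07, adjusted p = 0.0276), against 4.23% of all genes, with 1 call left by DESeq2 and 0 in the fit of all 18 libraries. With MDP 2 rose, Zbp1 (log2 0.89) and Ikbke (log2 0.41), and 4 fell, against 9.16% of all genes higher and 10% lower, with 4 calls by DESeq2 and 0 in the fit of all 18 libraries. The median over the 27 in knockout was log2 -0.05 with GM and -0.03 with MDP. In the difference between genotypes 1 of the 27 was lower in knockout for GM, Zbp1 (log2 -2.08, SE 0.39, adjusted p = 0.0346), against 0.926% of all genes. For MDP 4 were lower, Ikbke (log2 -1.37, SE 0.32, adjusted p = 0.0263), Zbp1 (log2 -1.20, SE 0.28, adjusted p = 0.0269), Rnaseh2b (log2 -0.56) and Polr3c (log2 -0.50), against 4.63%.

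Of 16 tested genes of interferon signalling 4 rose with GM in wild type (median log2 0.69, 0.608% of all genes), among them Irf7, a master regulator of interferon genes (log2 3.46, SE 0.37, adjusted p = 0.0213), and the ubiquitin-like modifier gene Isg15 (log2 3.39, SE 0.29, adjusted p = 0.0118). With MDP in wild type 7 rose and 1 fell (median log2 0.92, 4.61% of all genes higher and 3.72% lower), with Irf7 at log2 3.41 and Irf1 at log2 1.67. In knockout 4 rose and 1 fell with GM (median log2 -0.02, 3.61% of all genes higher and 4.23% lower), the lower one being Usp18, a brake on the interferon receptor (log2 -0.38, SE 0.08, adjusted p = 0.00262). DESeq2 called 5 there and the fit of all 18 libraries 0. With MDP in knockout 12 rose (median log2 0.39, 9.16% of all genes), against 4 calls in the fit of all 18 libraries and 12 by DESeq2, with Isg15 at log2 1.01 and the receptor kinase gene Jak2 at log2 0.95. In the difference between genotypes 5 of the 16 were lower in knockout for GM, against 0.926% of all genes. For MDP 5 were lower and 1 higher, against 4.63% of all genes lower and 1232 of 15450 called in either direction. The interferon genes Ifna2, Ifna4 and Ifna5 had no count in any of the 18 libraries. Ifnb1, the gene of interferon beta, had no count in the 3 wild-type water libraries and was counted in at least 1 library of each other group.

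The members varied together across libraries to different degrees. Over the 18 libraries, which share the group differences, all 45 pairs had a positive Pearson r on log2 CPM, from 0.27 (Ifi205 with Ifi207) to 0.99 (Ifi203 with Mndal), with a median of 0.82, or 0.75 without wild-type water replicate 3. Ifi208, Ifi211 and Ifi213 had Ifit3 as the most alike gene outside the family (r = 0.97, 0.99 and 0.95), whereas for Ifi203 and Mndal it was Uba7, the enzyme that activates ISG15 (0.96 for both), for Ifi204 it was Oas1a (0.98), for Ifi205 Cmpk2 (0.95), for Ifi206 H2-T22 (0.96), for Ifi209 Psmb10 (0.96) and for Ifi207 Mbp (0.95). The mean scaled profile of the 10 was most like that of Irgm1, an interferon-inducible immunity GTPase (r = 0.97), followed by Parp14 (0.97), Phf11b (0.96), Dtx3l (0.96) and Prex1 (0.96) among 8750 genes of at least 10 CPM. Within the 9 knockout libraries r was 0.97 for Irgm1 and 0.71 for Prex1, against 0.97 for Irgm1 and 0.98 for Prex1 within the 9 wild-type libraries. These are descriptions over libraries that differ in treatment, with no test.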

How the data were processed

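Per the labels, poly(A)-enriched directional libraries were sequenced from 18 samples. The submitters' processing notes name HISAT2 2.0.5, featureCounts 1.5.0-p3 and the build GRCm39; settings, strand use and annotation release are not given in the sources used here. The deposited table holds raw read counts per gene, and a deposited FPKM table (scaled by the authors to gene length and library size) served for levels per length. Every row had a gene identifier. The other values are the authors' gene lengths, deposited in bases. Genes were kept by filterByExpr (minimum count 10; 15450 of 56748, at least 99.92% of each library's counts) and scaled with TMM factors of 0.877 to 1.057. Each comparison was fitted to its own 6 libraries (12 for differences of responses) with 1 mean per group, by edgeR 4.0.16 quasi-likelihood (robust, 2-sided) in R 4.3.3, since the groups were known from earlier results to differ in spread. A gene was called where its p, adjusted by Benjamini-Hochberg over all tested genes, was below 0.05, and SE is that of the log2 fold change. For correlations 0.5 was added to counts before log2. The fit was also run on simulated data, the outcome of which is not given here and backs no result above. Alternatives were the fit of all 18 libraries, DESeq2 1.42.0, RLE factors, no filter, limma-voom 3.58.1 with a spread for each group, the replicate number as a block, and each library left out. All 10 members are named in each comparison; of the DNA-sensing and interferon lists at most 4 called genes with the largest changes are. Members and lists were chosen with earlier results of these data known. Among replicates no pair of libraries agreed within sampling noise. Promoter sequences are RefSeq's (GRCm38.p6), used for letters only.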

Additional observations from a re-analysis of the deposited data

Results flagged for a closer look

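Members whose response differed between the genotypes by the test of the difference (edgeR quasi-likelihood over 12 libraries, adjusted over all genes) are given again as knockout minus wild type. For GM the differences were log2 -6.30 for Ifi205 (adjusted p = 0.00872) and -3.43 for Ifi206 (adjusted p = 0.0128). For MDP they were log2 -1.36 for Ifi204 (adjusted p = 0.0256), -2.46 for Ifi206 (adjusted p = 0.00794), -0.997 for Ifi207 (adjusted p = 0.00226) and -2.85 for Ifi208 (adjusted p = 0.0437). All 6 are negative, that is, the knockout response was the lower one. With 3 libraries a group, single samples were not screened as outliers.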

How the results depend on the processing

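Counts are of the 10 members, with the share of all genes called in either direction in brackets. The fit of all 18 libraries, with 1 shared spread, called 5 [4.72%] members for GM against water in wild type (1 in the comparison's own 6 libraries), 8 [24.7%] for MDP against water in wild type (5), 2 [19.4%] for GM against MDP in wild type (1), 4 [33.1%] for knockout against wild type in water, 3 [26%] under MDP (10) and 4 [1.86%] for the difference of GM responses (2). Within knockout cells it called 0 [0.0194%] for GM against water, 0 [2.76%] for MDP against water and 0 [1.57%] for GM against MDP, where edgeR on the 6 libraries had 3, 9 and 9 members at an unadjusted p under 0.05. DESeq2 called 4 [2.3%] for GM against water and 3 [16.9%] for GM against MDP in wild type, 3 [6.49%] and 5 [13.7%] for the same in knockout, 1 [23.3%] for the genotypes in water and 4 [2.05%] for the difference of GM responses. Without the low-count filter the calls were 0 [0.467%] for GM against water in wild type (Ifi206 at an adjusted p of 0.0546), 3 [5.26%] for GM against water and 5 [10.4%] for GM against MDP in knockout. Limma-voom with a spread for each group called 8 [8.17%] for MDP against water and 3 [12.8%] for GM against MDP in wild type, and 2 [13.9%] for the genotypes in water. RLE factors left all 110 member calls on their side of the threshold.

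Same-numbered replicates were not treated as pairs, since in no comparison were all 3 correlations of their deviations over 0.1 (lowest -0.17, highest 0.43). This rule cannot show that they were unpaired. For GM against water in wild type the 3 correlations were -0.17, 0.43 and 0.43. With the replicate number as a block 2 [1.07%] members were called for GM against water and 2 [2.5%] for MDP against water in wild type, and 2 [7.42%] for GM against water and 4 [14.7%] for GM against MDP in knockout.

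Leaving out 1 library at a time gave 0 to 4 [0% to 1.86%] calls for GM against water, 0 to 10 [1.21% to 35.5%] for MDP against water and 1 to 8 [1.35% to 29%] for GM against MDP in wild type, 1 to 8 [5.37% to 7.99%], 4 to 7 [15.4% to 19.2%] and 1 to 9 [11.7% to 15.5%] for these in knockout, 3 to 8 [14.2% to 42.2%], 9 to 10 [38.5% to 41.8%] and 0 to 2 [2.13% to 46.8%] for knockout against wild type under GM, MDP and in water, 1 to 5 [0.46% to 3.61%] for the difference of GM responses and 2 to 9 [4.19% to 26.2%] for that of MDP responses. The cause of these changes was not tested. No member that was called changed sign under an alternative. Low counts limit Ifi205, Ifi208 and Ifi213 in wild-type water, where a library held 0 to 52 counts of them.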
